A study of Mus musculus with 11 samples.

Results

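The autophagy of the endoplasmic reticulum (ER-phagy) was followed here through 10 genes of the 24421 in the count table. They are the receptors and ER-shaping proteins *Fam134a*, *Fam134b*, *Fam134c*, *Rtn3*, *Rtn4*, *Ccpg1*, *Tex264*, *Atl3*, *Atl2* and *Calcoco1*. The set was listed by name from the known biology of ER turnover, except that *Fam134c* was chosen by its own normalized counts, which were low in one genotype and back near control in another. The values of *Fam134c* are therefore given as a description and without a test. Earlier results of these data were known when the other genes were listed. All 10 genes passed the filter on low values, which left 10951 genes to test.

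RNA was sequenced from 11 pools of type 1 conventional dendritic cells (cDC1s), the cells that present tumor antigens to CD8+ T cells, sorted from B16 melanoma tumors of mice. Each pool joined the tumors of 2 to 4 mice, so p-values measure the spread between pools. The 4 control pools came from animals without Cre. Controls 1 to 3 were XBP1 fl/fl and control 4 was XBP1 fl/fl, IRE1 fl/fl. The 4 XBP1ΔDC pools were XBP1 fl/fl with CD11c-CRE, and the 3 XBP1ΔDCIRE1truncDC pools carried in addition IRE1 fl/fl. Every pool thus shared the floxed *Xbp1* alleles, and both deleted lines rested on a Cre under the *Itgax* (CD11c) promoter, which also works in CD11c+ cells other than cDC1s. The floxed *Ern1* alleles lose the part that encodes the RNase domain of IRE1, so a shortened protein may remain. The design set the loss of the transcription factor XBP1, with IRE1 RNase still present, apart from the loss of both.

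ER-phagy receptors are proteins of the ER membrane, or soluble proteins held there, that bind ATG8 proteins on the growing autophagosome and so hand pieces of ER to the lysosome. FAM134 proteins, reticulons and atlastins also bend or fuse ER membrane, which is how sheets and tubules are shaped and pinched off. XBP1, which is made once its mRNA has been spliced by the ER sensor IRE1, drives genes of protein folding and transport in the ER, and cDC1s are known for a steadily active IRE1. IRE1 can in addition cut other mRNAs, a process called regulated IRE1-dependent decay (RIDD).

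Total counts ran from 21089065 to 26843486 per pool, and single members had 263 to 3311 counts in a pool. The cDC1 label was checked against 11 markers, all of which were detected, with a summed level of 11013.8 to 14384.8 CPM (the count of a gene scaled to the size of its library) over the 11 pools. That sum was lower in XBP1ΔDC (11013.8 to 12365.7) and XBP1ΔDCIRE1truncDC (12023 to 12836) than in control (13106.5 to 14384.8). Without *Naaa*, the 1 marker of 11 whose pools were lower without overlap in both lines, the 3 ranges overlapped. The marker *Itgae* overlapped only barely between control (1049.9 to 1232.9 CPM) and XBP1ΔDC (921.8 to 1050.0 CPM), and was at 910.0 to 1094.3 CPM in XBP1ΔDCIRE1truncDC. The marker *Zbtb46* was higher without overlap in XBP1ΔDCIRE1truncDC, at 205.9 to 249.5 CPM. It was at 164.8 to 205.3 CPM in control and 191.1 to 195.4 CPM in XBP1ΔDC. Macrophage and monocyte markers summed to 77.1 to 190 CPM and those of cDC2s to 19.0 to 62.5 CPM. Of 4 markers of plasmacytoid dendritic cells *Klk1* was at 0 in every pool, and their sum was 24.2 to 32.8 CPM in control, 15.4 to 34.0 CPM in XBP1ΔDC and 15.7 to 33.5 CPM in XBP1ΔDCIRE1truncDC. One of them, *Ccr9*, was at 14.0 to 17.5 CPM in control and lower without overlap in both deleted lines, at 5.72 to 13.4 and 2.89 to 10.4 CPM. *Siglech* was at 3.03 to 5.53 CPM in control, overlapped it in XBP1ΔDC at 1.18 to 3.52 CPM and lay below it in XBP1ΔDCIRE1truncDC at 0 to 2.09 CPM. *Pacsin1* overlapped in all groups. The summed melanoma markers were 8.22 to 58.5 CPM in control, 10.7 to 63.1 CPM in XBP1ΔDC and 6.17 to 8.13 CPM in XBP1ΔDCIRE1truncDC. In these bulk pools, fewer cells of a type and less RNA per cell cannot be told apart.

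*Xbp1* itself, counted over the whole gene and not over the floxed exon, fell by 0.74 on the log2 scale in XBP1ΔDC (adjusted p = 0.00167 from edgeR). In XBP1ΔDCIRE1truncDC it was at 179 to 236 CPM, between control at 244 to 271 CPM and XBP1ΔDC at 130 to 165 CPM and without overlap with either. Its log2 fold change there was -0.28 against control (SE 0.105, adjusted p = 0.324 from edgeR) and 0.46 against XBP1ΔDC (SE 0.104, adjusted p = 0.233 from edgeR). The IRE1 gene *Ern1* lay 0.62 higher on that scale in XBP1ΔDCIRE1truncDC than in control (adjusted p = 0.322 from edgeR), with overlapping pools. Against XBP1ΔDC it was 0.79 higher (SE 0.228, adjusted p = 0.491 from edgeR). The pools there did not overlap, at 17.0 to 26.0 CPM against 9.74 to 15.6 CPM in XBP1ΔDC. A count over the whole gene cannot tie these values to the floxed part.

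Among the 10 genes, *Fam134c* (also called Retreg3) had the widest difference between genotypes. It encodes a reticulon-type ER membrane protein with an ATG8-binding motif. In control pools *Fam134c* was at 33.6, 37.3, 42.2 and 38.9 CPM, in XBP1ΔDC at 18.6, 18.0, 14.1 and 18.2 CPM, and in XBP1ΔDCIRE1truncDC at 39.1, 32.7 and 36.9 CPM. All 4 XBP1ΔDC pools lay below all 7 others, and the XBP1ΔDCIRE1truncDC pools lay within the span of control and just beneath it. The means were 38.0 ± 3.56 CPM in control (SD, n = 4), 17.2 ± 2.09 CPM in XBP1ΔDC (SD, n = 4) and 36.2 ± 3.27 CPM in XBP1ΔDCIRE1truncDC (SD, n = 3). This is a 2.21-fold lower level in XBP1ΔDC than in control, with a log2 fold change of -1.14 (SE 0.119). Between XBP1ΔDCIRE1truncDC and control the log2 fold change was -0.07 (SE 0.126), and between XBP1ΔDCIRE1truncDC and XBP1ΔDC it was 1.07 (SE 0.127).

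XBP1ΔDC replicate 3 held the lowest *Fam134c* value, and without it the log2 fold change to control was -1.05. Over all 22 alternative analyses that value stayed between -1.20 and -1.05, and the value between the deleted lines stayed between 0.985 and 1.14. With the summed melanoma markers as a covariate the values were -1.14 and 1.12, and with the summed Y-linked genes, which ran from 30.4 to 178 CPM over the pools, they were -1.14 and 1.02.

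**Figure D1:**
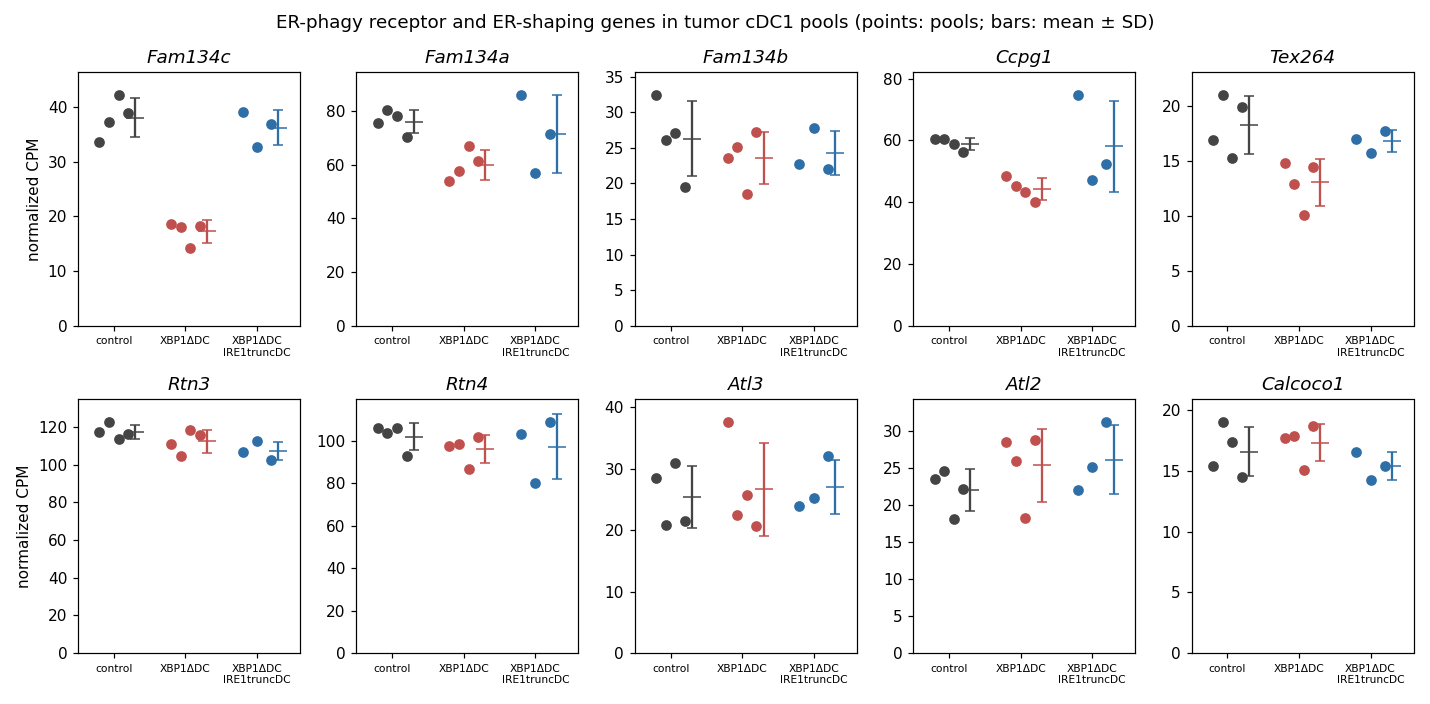
Normalized CPM (y axes, each starting at 0) of the 10 ER-phagy genes in each pool of control, XBP1ΔDC and XBP1ΔDCIRE1truncDC cDC1s; points are pools and bars are mean ± SD. *Fam134c* sits at 14.1 to 18.6 CPM in XBP1ΔDC against 33.6 to 42.2 CPM in control, while *Rtn3* and *Rtn4* have the highest CPM and overlap between control and XBP1ΔDC.

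*Fam134c* lies on the minus strand of chromosome 11 of GRCm38, the build called mm10 (chr11:101096322-101119893). No other annotated gene shares its exons. *Ern1* lies 5.275 Mb away on the same chromosome, so floxed *Ern1* alleles could bring linked sequence with them. Control 4, which carried floxed *Ern1* without Cre, had 38.9 CPM of *Fam134c*, inside the 33.6 to 42.2 CPM of controls 1 to 3. The effect of linkage was not tested further, since 1 control pool had these alleles.

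The mRNA letters that IRE1 is known to cut are a 7-base loop of the form CNGCAGN closed by a short stem. *Xbp1* carries a pair of such loops at its splice sites, and *Fam134c* was searched for them after its values were known. With a stem of at least 4 base pairs, G-U pairs allowed, the protein-coding transcripts of 2 of the 10 genes held a match, *Fam134c* and *Rtn4*. The sequences below are shown to let the loops be compared with those of *Xbp1*. Loop letters are in capitals, the strand is that of the transcript and the build is GRCm38.
Xbp1, first site: ctgagtCCGCAGCactcag
Xbp1, second site: tgcacctCTGCAGCaggtgca
Fam134c: ccagttCTGCAGCggctgg
Rtn4: gagagtCAGCAGAgttttc

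The *Xbp1* matches lie in coding exon 4 (chr11:5524270-5524288 and chr11:5524295-5524315, plus strand) with stems of 6 and 7 base pairs. The *Fam134c* match lies in coding exon 6 (chr11:101100970-101100988, minus strand), is in both of its 2 protein-coding transcripts, and has 6 base pairs of which 2 are G-U. Its 7 loop letters are those of the second *Xbp1* site. The *Rtn4* match (chr11:29706659-29706677, plus strand, coding exon 3) has 6 base pairs of which 3 are G-U and is in 2 of 6 protein-coding transcripts. Of 10331 tested genes with a transcript model, 15.5% held a match of at least 4 base pairs in any transcript, and 2.27% one of at least 6. In the longest transcript of each gene, 0.329% held the loop CTGCAGC on at least 6 base pairs. That loop and stem length are those of the *Fam134c* match itself, so nothing is read from this last share. A match is a description of letters and no measured cut.

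The FAM134 family has 3 members, all in the set. *Fam134a* (Retreg2, chr1:75142778-75147913) is the paralog with the highest level. It was at 75.5, 80.2, 77.9 and 70.2 CPM in control, at 53.9, 57.5, 66.9 and 61.3 CPM in XBP1ΔDC, and at 85.9, 56.8 and 71.3 CPM in XBP1ΔDCIRE1truncDC. Control and XBP1ΔDC pools did not overlap, and the XBP1ΔDCIRE1truncDC pools spanned both. The log2 fold change of *Fam134a* in XBP1ΔDC was -0.34 (SE 0.118), which did not pass the test over all genes (adjusted p = 0.409 from edgeR). In XBP1ΔDCIRE1truncDC it was -0.09 against control (SE 0.127, adjusted p = 0.870 from edgeR) and 0.25 against XBP1ΔDC (SE 0.126, adjusted p = 0.967 from edgeR).

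*Fam134b* (Retreg1), the first described ER-phagy receptor of this family, was at 32.4, 26.1, 27.1 and 19.5 CPM in control, at 23.6, 25.1, 18.5 and 27.2 CPM in XBP1ΔDC, and at 22.8, 27.8 and 22.1 CPM in XBP1ΔDCIRE1truncDC. The 3 groups overlapped throughout. Its log2 fold change was -0.16 in XBP1ΔDC (SE 0.164, adjusted p = 0.944 from edgeR) and -0.12 in XBP1ΔDCIRE1truncDC (SE 0.177, adjusted p = 0.877 from edgeR) against control.

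Levels can be compared between genes only per length, here as CPM per kb of annotated exons. On that scale *Fam134c* made up 25.1% ± 2.58 of the FAM134 family in control (SD, n = 4), 15.8% ± 2.18 in XBP1ΔDC (SD, n = 4) and 25.5% ± 1.14 in XBP1ΔDCIRE1truncDC (SD, n = 3). *Fam134a* made up 59.9%, 65.5% and 59.5%, and *Fam134b* 15.0%, 18.7% and 15.0%. The summed level of the family was 42.3 ± 2.33 CPM per kb in control (SD, n = 4), 30.5 ± 1.33 in XBP1ΔDC (SD, n = 4) and 39.7 ± 5.16 in XBP1ΔDCIRE1truncDC (SD, n = 3). As *Fam134c* is part of each of these sums, they are a description too.

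*Ccpg1* (chr9:72985429-73016340) encodes a receptor that binds both ATG8 proteins and the autophagy scaffold FIP200, and that is known as a gene of the unfolded protein response. Its level was 60.4, 60.4, 58.8 and 56.2 CPM in control, 48.5, 45.2, 43.4 and 40.1 CPM in XBP1ΔDC, and 74.7, 47.0 and 52.4 CPM in XBP1ΔDCIRE1truncDC. Every XBP1ΔDC pool lay below every control pool, while the XBP1ΔDCIRE1truncDC pools reached from the XBP1ΔDC range to above control. The log2 fold change was -0.41 in XBP1ΔDC (SE 0.128, adjusted p = 0.306 from edgeR) and -0.02 in XBP1ΔDCIRE1truncDC (SE 0.138, adjusted p = 0.977 from edgeR) against control. Between the deleted lines it was 0.39 (SE 0.137, adjusted p = 0.778 from edgeR). *Ccpg1* shares 3213 exon bases with *Gm44503* on the same strand and 2170 with *Pigb* on the other, so its counts may be split or mixed.

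*Tex264* (chr9:106658746-106685927) encodes a single-pass ER-phagy receptor. It was at 16.9, 21.0, 15.3 and 19.9 CPM in control, at 14.8, 12.9, 10.1 and 14.5 CPM in XBP1ΔDC, and at 17.0, 15.7 and 17.7 CPM in XBP1ΔDCIRE1truncDC. XBP1ΔDC pools lay below the pools of both other groups, by a narrow gap in each case. The log2 fold change of *Tex264* was -0.48 in XBP1ΔDC (SE 0.153, adjusted p = 0.330 from edgeR) and -0.12 in XBP1ΔDCIRE1truncDC (SE 0.165, adjusted p = 0.868 from edgeR) against control. From XBP1ΔDC to XBP1ΔDCIRE1truncDC it was 0.37 (SE 0.165, adjusted p = 0.931 from edgeR).

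Reticulons 3 and 4 keep ER tubules curved, and the long form of RTN3 is also a receptor for tubules. Counts per gene cannot tell that form from the others. *Rtn3* was at 117, 123, 113 and 116 CPM in control, at 111, 104, 118 and 116 CPM in XBP1ΔDC, and at 107, 112 and 103 CPM in XBP1ΔDCIRE1truncDC. XBP1ΔDC overlapped control, and the XBP1ΔDCIRE1truncDC pools lay just below control. Its log2 fold change was -0.06 in XBP1ΔDC (SE 0.0672, adjusted p = 0.945 from edgeR) and -0.13 in XBP1ΔDCIRE1truncDC (SE 0.0728, adjusted p = 0.550 from edgeR). With the smallest SE of the 10 genes, *Rtn3* was the member measured most tightly. *Rtn4*, which shares 1284 exon bases with *Eml6* on the opposite strand, was at 92.9 to 106 CPM in control, 86.9 to 102 CPM in XBP1ΔDC and 79.9 to 109 CPM in XBP1ΔDCIRE1truncDC. It had log2 fold changes of -0.09 (SE 0.0982, adjusted p = 0.949 from edgeR) and -0.07 (SE 0.106, adjusted p = 0.886 from edgeR) against control.

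The atlastins are GTPases that fuse ER tubules, and ATL3 is in addition a receptor for tubular ER. *Atl3* was at 20.9 to 31.0 CPM in control, 20.7 to 37.6 CPM in XBP1ΔDC and 23.9 to 32.0 CPM in XBP1ΔDCIRE1truncDC, with overlapping groups. Its log2 fold changes to control were 0.06 (SE 0.197, adjusted p = 0.986 from edgeR) and 0.09 (SE 0.213, adjusted p = 0.936 from edgeR). *Atl2* was at 18.1 to 24.6 CPM in control, 18.3 to 28.8 CPM in XBP1ΔDC and 22.1 to 31.2 CPM in XBP1ΔDCIRE1truncDC. The groups of *Atl2* overlapped as well, with log2 fold changes of 0.20 (SE 0.166, adjusted p = 0.901 from edgeR) and 0.24 (SE 0.178, adjusted p = 0.691 from edgeR). *Calcoco1* encodes a soluble receptor that is tethered to the ER through VAP proteins. It was at 14.5 to 19.0 CPM in control, 15.1 to 18.7 CPM in XBP1ΔDC and 14.3 to 16.6 CPM in XBP1ΔDCIRE1truncDC, with log2 fold changes of 0.06 (SE 0.128, adjusted p = 0.968 from edgeR) and -0.10 (SE 0.139, adjusted p = 0.862 from edgeR) against control.

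**Figure D2:**
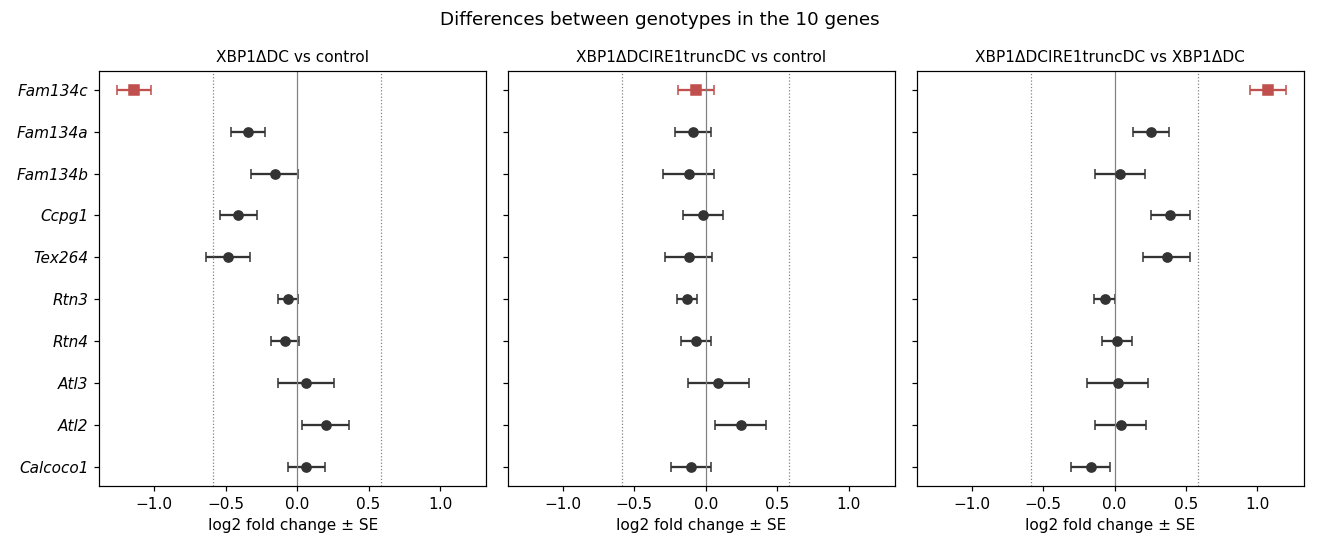
Log2 fold change ± SE (x axes) of the 10 genes (y axis) in the 3 comparisons; dotted lines mark a 1.5-fold change and red squares *Fam134c*, which was chosen for this pattern. *Fam134c* lies at -1.14 and 1.07 in the outer panels and at -0.07 in the middle one, while *Fam134a*, *Ccpg1* and *Tex264* lie between -0.48 and -0.34 on the left.

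In XBP1ΔDC against control, none of the 9 genes other than *Fam134c* was a DEG (adjusted p below 0.05 with a change of over 1.5-fold), beside 0.493% of all 10951 genes tested. By the unadjusted p under 0.05 of edgeR, 3 of the 9 were lower (*Fam134a*, *Ccpg1* and *Tex264*) and none was higher, beside 4.95% of all genes lower and 2.67% higher. These 3 were also the members whose XBP1ΔDC and control pools did not overlap, which 3.67% of all genes did in that direction. Over the 22 alternatives, their adjusted p ran from 0.147 to 0.798 for *Fam134a*, from 0.0563 to 0.602 for *Ccpg1* and from 0.159 to 0.740 for *Tex264*, and DESeq2 and limma called none of the 9 a DEG. The median log2 fold change of the 9 was -0.09, and that of all genes was 0.00.

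For XBP1ΔDCIRE1truncDC against control, none of the 9 genes was a DEG either, beside 0.21% of all genes. None had an unadjusted p under 0.05 in edgeR, against 5.44% of all genes lower and 5.73% higher. *Rtn3* was the 1 member whose groups did not overlap, beside 5.81% of all genes in the lower direction. DESeq2 and limma called none. The median log2 fold change of the 9 was -0.09.

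Between the deleted lines 0.0731% of all genes were DEGs and none of the 9 was, also by DESeq2 and limma. *Ccpg1* and *Tex264* had an unadjusted p under 0.05 in edgeR and were higher in XBP1ΔDCIRE1truncDC, beside 2.79% of all genes, and *Tex264* was the 1 member without overlap, beside 3.11%. The median of the 9 was 0.04. XBP1ΔDCIRE1truncDC had the lower summed melanoma markers in this comparison, and with that sum as a covariate none of the 9 was a DEG. All 3 comparisons share samples, so their values are given side by side only.

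Ordered per length, the control pools had *Fam134a* (25.3 ± 1.43 CPM per kb, SD, n = 4) and *Rtn3* (23.4 ± 0.763 CPM per kb) at the top, with overlapping ranges. *Rtn4* came next at 14.6 ± 0.883 CPM per kb, then *Fam134c* at 10.6 ± 0.991 CPM per kb and *Ccpg1* at 7.86 ± 0.266 CPM per kb. *Rtn4* and *Fam134c* were each apart from their neighbours, while *Ccpg1* overlapped *Fam134b*. *Tex264* (6.36 ± 0.925 CPM per kb) and *Fam134b* (6.35 ± 1.28 CPM per kb) could not be told apart. *Calcoco1* (2.90 ± 0.354 CPM per kb), *Atl3* (2.52 ± 0.501 CPM per kb) and *Atl2* (2.25 ± 0.289 CPM per kb) closed the order, and *Atl3* overlapped both of its neighbours. In XBP1ΔDC, *Fam134c* stood at 4.80 ± 0.581 CPM per kb (SD, n = 4), below *Fam134b* at 5.69 ± 0.898 and above *Tex264* at 4.55 ± 0.753, both with ranges that overlapped its own. XBP1ΔDCIRE1truncDC had it back between *Rtn4* and *Ccpg1*, at 10.1 ± 0.912 CPM per kb (SD, n = 3), with a range that overlapped that of *Ccpg1*. The exon lengths pool all annotated transcripts, so genes with long unused exons are set too low.

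The 5 tested genes with the pattern most like that of *Fam134c*, by the root mean square difference over 11 pools of log2 CPM relative to the control mean, were *Notch4* (0.216), *Rnf130* (0.217), *Slc1a5* (0.237), *Bloc1s1* (0.268) and *Pkd1* (0.280). They were chosen for likeness to a gene that was itself chosen for its pattern, and so get no test. *Notch4*, a Notch receptor, was at 42.4 to 52.9 CPM in control, 15.4 to 22.4 in XBP1ΔDC and 33.4 to 43.5 in XBP1ΔDCIRE1truncDC. *Rnf130*, a membrane ubiquitin ligase that the study lists as a RIDD target, was at 129 to 167, 58.6 to 84.2 and 107 to 139 CPM in the same order. *Slc1a5*, an amino acid transporter, was at 184 to 208, 101 to 111 and 201 to 215 CPM. *Bloc1s1*, a BLOC-1 and BORC subunit and a known target of RIDD, was at 31.4 to 40.6, 14.4 to 23.1 and 34.1 to 41.9 CPM, and *Pkd1*, polycystin 1, at 67.4 to 80.3, 37.1 to 49.4 and 64.4 to 75.3 CPM. In each of the 5 genes the XBP1ΔDC pools lay below all others, as in *Fam134c*. Against control, the log2 fold change in XBP1ΔDCIRE1truncDC was -0.25 for *Notch4* (SE 0.142), -0.28 for *Rnf130* (SE 0.135) and 0.09 for *Slc1a5* (SE 0.0737). *Bloc1s1* shares 720 exon bases with *Rdh5*, and *Pkd1* shares 693 with *Tsc2*.

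**Figure D3:**
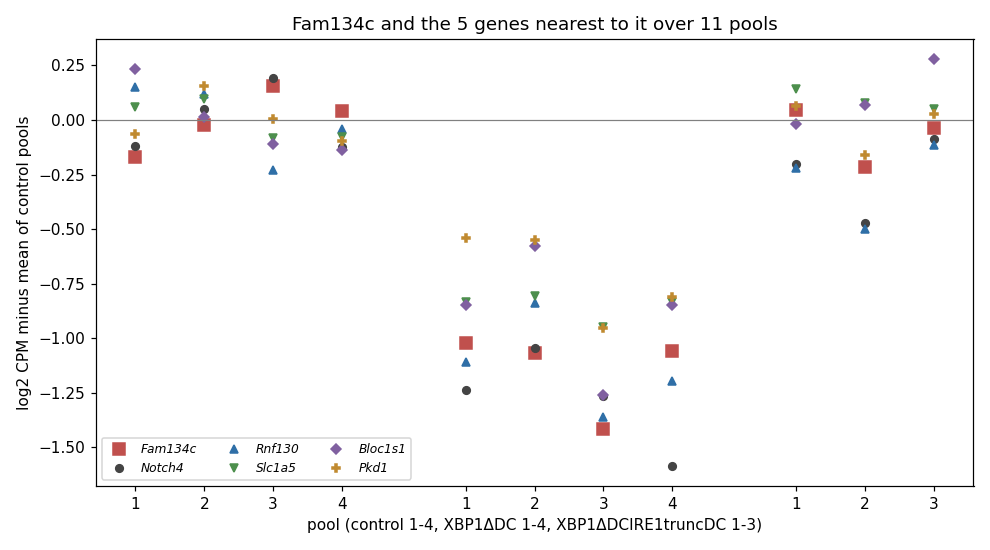
Log2 CPM minus the mean of the control pools (y axis) in each of the 11 pools (x axis) for *Fam134c* (red squares) and the 5 genes nearest to it. Every point of the 4 XBP1ΔDC pools lies below every point of the other 7 pools for its gene, and the XBP1ΔDCIRE1truncDC pools lie from -0.50 to 0.28, all 3 below the control mean in *Notch4* and *Rnf130* and all 3 above it in *Slc1a5*.

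Loops of the IRE1 form were looked for in these neighbours as well, and 4 of the 5 held one, beside the 15.5% of all genes given above. Nothing is read from this count, since the genes were picked for likeness to *Fam134c* and differ in length. They are printed with the loop in capitals for comparison with the *Fam134c* sequence above. *Pkd1*, whose longest transcript has 14164 bases where the median of all genes is 3139, held 2.
Notch4: gtcacCCGCAGTgtgac
Slc1a5: gtgcCCGCAGTgcac
Bloc1s1: gcagCTGCAGTctgc
Pkd1, first site: gaggcCTGCAGTgcctt
Pkd1, second site: agggCAGCAGGccct

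The *Notch4* match (chr17:34582853-34582869, plus strand) and the first of *Pkd1* (chr17:24565103-24565119, plus strand) have 5 base pairs. Those of *Slc1a5* (chr7:16782421-16782435, plus strand), *Bloc1s1* (chr10:128920007-128920021, minus strand) and the second of *Pkd1* (chr17:24587208-24587222, plus strand) have 4. None of these stems had the 6 base pairs of the *Fam134c* match, and *Rnf130*, listed as a RIDD target by the study, held no such letters.

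The other genes of the pathway were taken from 8 lists with 97 tested genes, chosen with earlier results of these data known. In XBP1ΔDC against control 1 of the 97 was a DEG, *Cdk5rap3*, beside 0.493% of all genes. None was in XBP1ΔDCIRE1truncDC against control, beside 0.21% of all genes, or between the deleted lines, beside 0.0731%. Unadjusted p under 0.05 was found in edgeR for 7 genes (7.22%), all lower, in XBP1ΔDC against control, beside 4.95% of all genes lower and 2.67% higher. In XBP1ΔDCIRE1truncDC against control 6 (6.19%) were lower and 3 (3.09%) higher, beside 5.44% and 5.73% of all genes. Between the deleted lines 3 (3.09%) were higher, beside 2.79% of all genes. The share of lower genes in XBP1ΔDC against control lay above that of all genes, and the other shares lay near or below. Pools were lower without overlap for 7 of the 97 in XBP1ΔDC against control, beside 3.67% of all genes. In XBP1ΔDCIRE1truncDC against control this held for 8, beside 5.81%. DESeq2 called 1 pathway gene in the first comparison, 1 in the second (*Ufl1*) and none in the third.

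UFMylation attaches the ubiquitin-like protein UFM1 to ER-bound ribosomes and is tied to ER-phagy through the ligase UFL1, its ER anchor DDRGK1 and the adaptor CDK5RAP3. *Cdk5rap3*, whose product is itself described as an ER-phagy receptor, was at 80.6, 94.6, 72.4 and 71.5 CPM in control, at 49.0, 45.3, 52.9 and 49.2 CPM in XBP1ΔDC, and at 57.4, 53.5 and 54.1 CPM in XBP1ΔDCIRE1truncDC. Both deleted lines lay below control without overlap. It fell by 0.70 on the log2 scale in XBP1ΔDC (SE 0.0984, adjusted p = 0.00287 from edgeR) and remained a DEG in each of the 22 alternatives, with an adjusted p of at most 0.0240. In XBP1ΔDCIRE1truncDC its log2 fold change was -0.54 (SE 0.107, adjusted p = 0.0556 from edgeR), and over the alternatives its adjusted p ran from 0.00159 to 0.191. Between the deleted lines it was 0.16 (SE 0.106, adjusted p = 0.967 from edgeR).

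*Ufl1* was at 34.9, 34.2, 38.9 and 37.8 CPM in control, at 26.2, 21.7, 23.3 and 29.1 CPM in XBP1ΔDC, and at 24.3, 20.1 and 25.7 CPM in XBP1ΔDCIRE1truncDC. Both deleted lines again lay below control without overlap. Its log2 fold changes were -0.54 (SE 0.120, adjusted p = 0.0613 from edgeR) and -0.64 (SE 0.131, adjusted p = 0.0612 from edgeR), and over the alternatives the first had an adjusted p from 0.00411 to 0.208 and the second from 0.00197 to 0.207. *Ufsp2*, a UFM1 protease, had a log2 fold change of -0.33 in XBP1ΔDC (SE 0.103, adjusted p = 0.333 from edgeR), and *Ufm1* one of -0.28 in XBP1ΔDCIRE1truncDC (SE 0.108, adjusted p = 0.340 from edgeR).

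Of 7 UFMylation genes tested, 6 were lower in XBP1ΔDC and 7 in XBP1ΔDCIRE1truncDC, with median log2 fold changes of -0.19 and -0.18, where the median of all genes was 0.00 in both. Unadjusted p under 0.05 and lower held for 3 of the 7 in each line, beside 4.95% and 5.44% of all genes. Pools did not overlap with control for 4 of the 7 in XBP1ΔDC (3.67% of all genes) and for 3 of the 7 in XBP1ΔDCIRE1truncDC (5.81% of all genes). Between the deleted lines the median was -0.02. Both lines are set against the same 4 control pools, which ties these counts together. *Ccr9*, the marker of plasmacytoid dendritic cells described above, was lower in both lines as well. Of the same list, *Siglech* lay below control in XBP1ΔDCIRE1truncDC alone, and *Pacsin1* and the summed markers overlapped in all groups. The part of *Ccr9* in the UFMylation values was not tested.

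**Figure D4:**
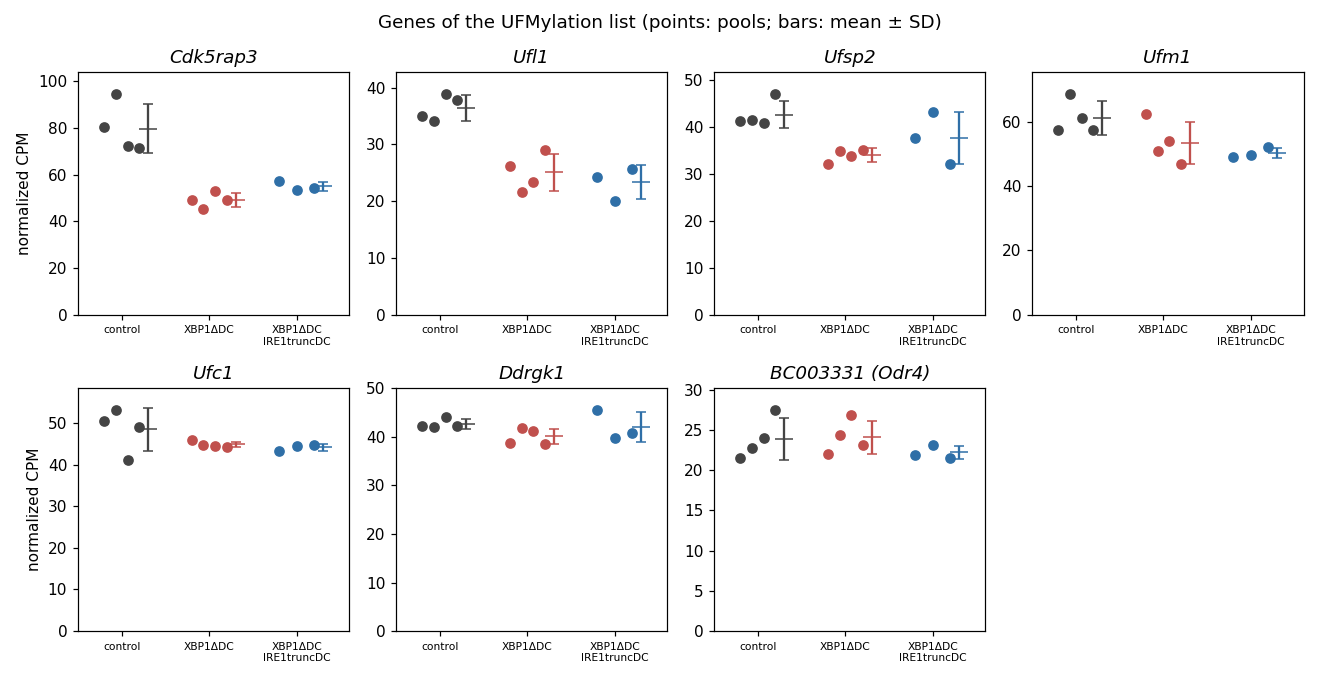
Normalized CPM (y axes, each starting at 0) of 7 tested UFMylation genes in each pool of the 3 groups; points are pools and bars are mean ± SD. *Cdk5rap3* and *Ufl1* lie lower in both deleted lines than in every control pool, at 45.3 to 57.4 CPM against 71.5 to 94.6 CPM for *Cdk5rap3*.

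XBP1 binds promoter elements that hold the letters CCACGT, and these were searched on both strands from 250 bases before to 50 after each RefSeq start (GRCm38.p6). All 10 ER-phagy genes had a promoter in the table, and 1 of them, *Fam134a*, held CCACGT. All 8 UFMylation genes had one, and 2 held the letters, *Ufm1* and *Cdk5rap3*. Over 32851 promoters the share was 8.31%. That share counts single promoters, while the counts above are of genes, some of which had several promoters. In the sequences below, printed on the strand of the gene, the letters in capitals are the reverse complement of CCACGT, and in *Fam134a* they overlap the palindrome CACGTG, which 7.15% of all promoters hold.
Fam134a: ttagggcacgtcACGTGGcatcgcgcttca
Ufm1: cgctggagggcgACGTGGgccgcgaaggcc
Cdk5rap3: ctgaagacggcgACGTGGctgaaggaggcc

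These windows lie at chr1:75142705-75142734 (plus strand), chr3:53863817-53863846 (minus strand) and chr11:96916483-96916512 (minus strand). The longer ER stress element, CCAAT and CCACG with 9 bases between them, was in no promoter of the 10 genes and in 0.119% of all promoters.

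Receptors and shaping proteins outside the 10 genes included 12 tested genes, of which *Cdk5rap3* alone passed the test. *Arl6ip1*, an ER-shaping protein, was the most abundant at 453 to 573 CPM over the 11 pools. *Sec62*, a translocon protein and ER-phagy receptor, had a log2 fold change of -0.16 in XBP1ΔDC (SE 0.0901, adjusted p = 0.772 from edgeR). *Ckap4*, which marks ER sheets, had one of -0.29 in XBP1ΔDCIRE1truncDC (SE 0.200, adjusted p = 0.664 from edgeR). *Trim13*, an ER ubiquitin ligase at 0.957 to 3.89 CPM, had one of -0.71 between the deleted lines (SE 0.469, adjusted p = 0.967 from edgeR). None of the 9 partners and kinases was a DEG. *Canx*, the chaperone calnexin that brings cargo to FAM134B, was at 644 to 767 CPM over all pools. *Sec24c*, a COPII coat subunit, was at 172 to 213 CPM in control and 156 to 177 CPM in XBP1ΔDC (log2 fold change -0.21, SE 0.0795, adjusted p = 0.472 from edgeR). *Csnk2b*, the regulatory subunit of casein kinase 2, *Vcp*, an ATPase that extracts ubiquitinated proteins, and *Pgrmc1* had log2 fold changes between -0.14 and 0.13 in the 3 comparisons.

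The conjugation machinery of ATG8 proteins had 16 tested genes with a median log2 fold change of 0.00 in XBP1ΔDC, -0.02 in XBP1ΔDCIRE1truncDC against control, and 0.03 between the lines. No gene of it had an unadjusted p under 0.05 in edgeR in any comparison. *Gabarap*, the most abundant ATG8 gene, was at 422 to 473 CPM in control, 388 to 476 CPM in XBP1ΔDC and 402 to 470 CPM in XBP1ΔDCIRE1truncDC. *Gabarapl1* and *Atg16l1* had log2 fold changes of 0.28 (SE 0.143, adjusted p = 0.499 from edgeR) and 0.35 (SE 0.196, adjusted p = 0.562 from edgeR) in XBP1ΔDCIRE1truncDC against control. *Atg4d*, *Atg10* and *Atg5* were the others with the smallest p of this list, with adjusted p of at least 0.708 throughout.

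Among 21 genes of autophagosome initiation and membrane supply, *Atg13*, a subunit of the ULK1 kinase complex, was at 40.8 to 53.1 CPM in control, 26.9 to 42.3 CPM in XBP1ΔDC and 38.6 to 49.8 CPM in XBP1ΔDCIRE1truncDC. XBP1ΔDC overlapped both other groups. Its log2 fold change was -0.50 in XBP1ΔDC against control (SE 0.152, adjusted p = 0.267 from edgeR) and 0.43 between the deleted lines (SE 0.163, adjusted p = 0.851 from edgeR). *Atg9a*, the lipid scramblase of autophagosome seeds, was at 28.4 to 34.4 CPM in control and 23.4 to 26.5 CPM in XBP1ΔDC, without overlap (adjusted p = 0.382 from edgeR). *Atg14* and *Pik3r4*, of the class III phosphatidylinositol 3-kinase complex, had log2 fold changes of 0.56 and 0.38 between the deleted lines (adjusted p = 0.931 for both from edgeR). *Wipi2*, a reader of the lipid made by that kinase, had one of 0.19 in XBP1ΔDCIRE1truncDC against control (adjusted p = 0.552 from edgeR). *Uvrag*, the most abundant gene of the list, was at 224 to 329 CPM over all pools.

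Receptors for other cargo numbered 12 tested genes, none of which was a DEG in any comparison. *Sqstm1*, which encodes p62, was at 512, 436, 537 and 453 CPM in control, at 591, 513, 481 and 565 CPM in XBP1ΔDC, and at 575, 608 and 675 CPM in XBP1ΔDCIRE1truncDC. The XBP1ΔDCIRE1truncDC pools lay above control without overlap (log2 fold change 0.35, SE 0.0970, adjusted p = 0.185 from edgeR). *Ncoa4*, the receptor for ferritin, had a log2 fold change of 0.32 in the same comparison (SE 0.135, adjusted p = 0.393 from edgeR). *Tax1bp1* and *Bnip3l* had log2 fold changes of 0.12 and -0.19 in XBP1ΔDC (adjusted p = 0.766 and 0.750 from edgeR), and *Bcl2l13* one of -0.18 between the deleted lines (adjusted p = 0.967 from edgeR).

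Fusion of autophagosomes with lysosomes was covered by 11 tested genes and its control by mTORC1 and MiT/TFE factors by 10, and again none was a DEG in any comparison. *Rab7*, a late endosomal GTPase, was at 395 to 459 CPM over all pools. *Plekhm1*, an adaptor of RAB7, had a log2 fold change of -0.27 in XBP1ΔDC (SE 0.104, adjusted p = 0.518 from edgeR). *Stx17*, the SNARE of autophagosomes, and *Lamp2* had log2 fold changes of -0.28 (SE 0.111, adjusted p = 0.355 from edgeR) and -0.24 (SE 0.0903, adjusted p = 0.338 from edgeR) in XBP1ΔDCIRE1truncDC, both without overlap with control. *Lamp1* had one of 0.44 there (SE 0.216, adjusted p = 0.477 from edgeR). *Fnip1*, a partner of folliculin, was at 16.1 to 22.4 CPM in control and 13.2 to 14.6 CPM in XBP1ΔDCIRE1truncDC (log2 fold change -0.49, SE 0.154, adjusted p = 0.254 from edgeR), while *Fnip2* was at 79.8 to 112 CPM over all pools. *Mitf* was at 0.740 to 1.74 CPM in control and 1.86 to 2.43 CPM in XBP1ΔDCIRE1truncDC (adjusted p = 0.446 from edgeR). *Rtn2*, *Reep1*, *Reep2*, *Ufsp1*, *Calcoco2* and *Tfec* did not pass the filter on low values, with at most 0.982 CPM in any pool.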

How the data were processed

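The authors sequenced single-end libraries made with a SMART-Seq v4 kit, trimmed reads with Trimmomatic (0.39), aligned them to mm10 with STAR (2.7.3a), counted them with HTSeq and deposited the raw counts per gene symbol. The gene annotation behind the counts is not given in the sources used here, and libraries of this kind keep no strand. A deposited table of normalized log2 values was not used.

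Groups came from the genotype labels. In edgeR (4.0.16, R 4.3.3), 10951 of 24421 genes with more than 1 CPM in at least 4 pools were scaled by TMM and fitted over all 11 pools by the quasi-likelihood method, with Benjamini-Hochberg adjustment over all of them. A gene counted as a DEG with an adjusted p below 0.05 together with over 1.5-fold change, the study's limits. CPM are TMM-normalized. Alternatives used DESeq2 (1.42.0), limma (3.58.1) voom, other scalings and filters, a replicate block and leaving out each pool, and covariates for melanoma and Y-linked sums were added after seeing the data. Scripts were tested on simulated data.

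The members and lists were chosen with earlier results of these data known. Text names all members, *Xbp1*, *Ern1*, each pathway gene that was a DEG, the 2 genes of each list with the smallest unadjusted p per comparison, the most abundant gene of each list, and the 5 genes nearest to *Fam134c*. Remaining UFMylation genes appear in counts. A pathway gene and a cell type marker of these lists are not reported here and were left out of the counts. Gene positions are from GENCODE on GRCm38 and promoters from RefSeq. Older symbols were matched by alias (*Fam134c* is Retreg3).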

Additional observations from a re-analysis of the deposited data

Results flagged for a closer look

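Of 108 groups of 4 pools examined for a single pool apart from the others, 4 stood out, where chance alone gives about 1 in 20. *Fam134c* in XBP1ΔDC replicate 3 was at 14.1 CPM, below 18.0 to 18.6 CPM in the other 3 pools. *Wipi2* in the same pool was at 31.7 CPM, below 37.5 to 37.6 CPM. *Bnip3l* in XBP1ΔDC replicate 1 was at 36.7 CPM, below 43.9 to 45.0 CPM. *Ufsp2* in control replicate 4 was at 47.0 CPM, above 40.8 to 41.4 CPM. XBP1ΔDCIRE1truncDC has 3 pools and was not examined in this way.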

How the results depend on the processing

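Over 22 alternatives (20 planned), 0 of the 9 members other than *Fam134c* was a DEG in any comparison, and of 1716 values of named genes with a test 29 changed sign, all of them without a call. The number of DEGs over all genes stayed within 1.5 times its value in XBP1ΔDC against control. In XBP1ΔDCIRE1truncDC against control it was 23, but 95 with DESeq2, 15 with only the 2 groups fitted, 51 with the Y-linked covariate and 12 to 23 when 1 pool was left out (15 without control 1, 12 without control 2, 15 and 13 without XBP1ΔDCIRE1truncDC 1 and 3). Between the deleted lines it was 8, but 36 with DESeq2, 4 with the melanoma covariate, 13 with the Y-linked covariate and 4 to 10 when 1 pool was left out (4 without XBP1ΔDC 1 or 3, 5 without control 1 or 2, XBP1ΔDC 4, or XBP1ΔDCIRE1truncDC 1 or 3). One pathway gene, *Ufl1*, passed in XBP1ΔDCIRE1truncDC against control with DESeq2 (1 gene) and with the Y-linked covariate (1 gene). The cause of these shifts was not tested.

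Over 10 same-numbered pairs of pools the correlations of their deviations ran from -0.26 to 0.133. Between control and XBP1ΔDC they were 0.042 to 0.133, where pairs of unlike number had -0.20 to 0.249. Between the deleted lines they were -0.26 to -0.142. In control and in XBP1ΔDC, replicates 1 and 2 had at most 10.8 CPM of summed melanoma markers and replicates 3 and 4 at least 27.5 CPM. XBP1ΔDCIRE1truncDC had 6.17 to 8.13 CPM throughout. Whether same-numbered pools were handled together was not tested. With the replicate number as a block, 11 DEGs were left in XBP1ΔDCIRE1truncDC against control and 3 between the deleted lines, with *Atl3* at -0.043 in the latter. The block changed no call of the other 9 members, *Xbp1*, *Ern1* or the pathway genes. *Fam134c* and its 5 neighbours have no test and were at 0.661 to 1.09 between the deleted lines with the block, against 0.687 to 1.07 without it.

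Sign changes between the deleted lines were at -0.0180 (*Rtn4*) and -0.00906 (*Atl3*) with library size scaling, at -0.052 (*Fam134b*), -0.012 (*Rtn4*), -0.076 (*Atl3*) and -0.0595 (*Atl2*) with the melanoma covariate, and at -0.047 (*Rtn4*) and -0.038 (*Atl3*) with the Y-linked covariate. *Atl3* against control in XBP1ΔDCIRE1truncDC was at -0.030 with the melanoma covariate. Leaving out 1 pool gave -0.070 to 0.14 for *Rtn4*, -0.12 to 0.23 for *Atl3*, -0.074 to 0.11 for *Fam134b* and -0.10 to 0.15 for *Atl2* between the lines. It gave -0.15 to 0.17 for *Atl3* and -0.31 to 0.0095 for *Ern1* in XBP1ΔDC against control, and -0.25 to 0.050 for *Fam134a*, -0.16 to 0.055 for *Rtn4*, -0.24 to 0.11 for *Ccpg1* and -0.052 to 0.20 for *Atl3* in XBP1ΔDCIRE1truncDC against control.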

Other observations

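The spread among pools of XBP1ΔDCIRE1truncDC was wider than in the other groups in some members and narrower in more of them. The coefficient of variation of *Ccpg1* was 25.3% there, against 3.39% in control and 7.84% in XBP1ΔDC, and that of *Fam134a* was 20.4% against 5.65% and 9.30%. *Rtn4* had 15.7% against 6.05% and 6.65%. Replicate 1 held the highest level of *Fam134a* and *Ccpg1* and replicate 2 the lowest of *Fam134a*, *Rtn4* and *Ccpg1*. *Tex264* went the other way, with 5.99% in XBP1ΔDCIRE1truncDC against 14.5% in control and 16.5% in XBP1ΔDC. *Fam134b*, *Fam134c*, *Atl3* and *Calcoco1* also had their smallest coefficient of variation in XBP1ΔDCIRE1truncDC. For *Fam134b* it was 12.8% against 20.1% and 15.8%, and for *Atl3* 16.1% against 19.9% and 28.6%. *Rtn3* and *Atl2* lay between the other groups. These differences in spread were not tested.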
